A study of Mus musculus with 12 samples.

Results

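The 10 genes described here encode the core enzymes that make prostaglandins, thromboxane and leukotrienes: Pla2g4a, Ptgs1, Ptgs2, Ptges, Ptges2, Hpgds, Tbxas1, Alox5, Alox5ap and Ltc4s. They were chosen by name as a pathway, and their probes were found as the non-control probes whose transcript accession belongs to one of these genes. All 10 were on the array, with 11 probes, out of 20887 genes that the array's probes named and 13116 that were tested. Ptges had 2 probes, and the single Ptgs2 probe was printed as 10 spots.

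The study asked how the loss of the orphan nuclear receptor ERRα, encoded by Esrra, alters gene expression in resting and activated macrophages. RNA was hybridised to 1-colour Agilent arrays, which report one fluorescence signal per spot. The 12 arrays formed 4 groups of 3 replicates: ERRα+/+ macrophages given PBS, the solvent; ERRα+/+ macrophages given lipopolysaccharide (LPS) at 100 ng/mL; ERRα-/- macrophages given PBS; and ERRα-/- macrophages given LPS at the same dose. In all groups the macrophages were grown for 5 to 7 days with M-CSF from marrow of male C57BL6 mice aged 6 to 8 weeks. How long LPS was left on the cells is not stated in the labels. The labels do not say how the ERRα-/- allele was made or which part of the gene it lacks. They do not say whether replicates came from separate animals or cultures, and the source field of replicates 2 and 3 reads cell line although the cell type field says macrophages, so the p-values may measure only technical spread.

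Arachidonic acid is cut from membrane phospholipids by cytosolic phospholipase A2 and then enters the cyclooxygenase or the lipoxygenase branch. Cyclooxygenases turn it into prostaglandin H2, which terminal synthases convert into prostaglandin E2, prostaglandin D2 or thromboxane A2. In the other branch the lipoxygenase made from Alox5, helped by its activating protein, forms leukotriene A4, the parent of leukotrienes B4 and C4. In macrophages the inducible cyclooxygenase and the microsomal prostaglandin E synthase are known targets of endotoxin signalling, and prostaglandin E2 is a main product of such cells.

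Signal, slide and identity of the cells were checked first. Between 45.3% and 56.7% of probes were well above background per array, and no spot was saturated. Replicate 1 of every group lay on slide 1 (4 arrays) and replicates 2 and 3 on slide 2 (8 arrays), so each slide held all 4 groups, and values of the 10 genes are also given within slides. Esrra read 4.39 to 4.68 in ERRα+/+ and 0.15 to 2.48 in ERRα-/- PBS arrays, and 5.87 to 6.36 against 3.83 to 4.40 under LPS, with the highest ERRα-/- PBS value in replicate 1. Of 11 measured macrophage markers, 10 were above background on every array, and so were 8 of 9 measured neutrophil markers. Of 10 measured markers of mast cells and basophils, which also make prostaglandin D2 and leukotriene C4, Kit, Cpa3, Tpsb2, Mcpt8 and Prss34 were above background on every array, Gata2 on 10 of 12, and Ms4a2, Fcer1a, Cma1 and Mcpt4 on none. The summed level of these 10, in units of the array's 75th percentile, was 4.65 to 6.19 and 4.25 to 4.64 in ERRα+/+ cells with PBS and LPS, and 3.21 to 4.82 and 2.86 to 6.28 in ERRα-/- cells, and that of the neutrophil markers was 232 to 535 over all arrays. The part of such cells in the values below was not tested. All levels below are log2 signals relative to the array's 75th percentile, given in the order of replicates 1, 2 and 3, and levels of different probes were not set against each other.

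Promoter sequences are shown for Ptgs2 and Ptges, which rose with LPS, and for Hpgds and Tbxas1, which fell, because these genes moved in opposite directions on the same arrays. RefSeq promoter windows of the GRCm38.p6 assembly, reaching from 250 bases before to 50 bases after a gene's start, were found for 9 of the 10 genes. The 250 bases before the start are printed 5′ to 3′ on the gene's own strand, for Ptgs2 (chr1:150099781-150100030, plus strand), Ptges (chr2:30903298-30903547, minus strand), Hpgds (chr6:65144731-65144980, minus strand) and Tbxas1 (chr6:38918736-38918985, plus strand). Capitals mark matches to the 10 motifs searched on both strands.
Ptgs2: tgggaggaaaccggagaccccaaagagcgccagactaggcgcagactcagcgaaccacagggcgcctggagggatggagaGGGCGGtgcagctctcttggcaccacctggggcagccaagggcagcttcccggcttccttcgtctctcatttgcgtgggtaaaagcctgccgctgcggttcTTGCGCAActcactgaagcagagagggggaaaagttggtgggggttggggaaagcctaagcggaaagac
Ptges: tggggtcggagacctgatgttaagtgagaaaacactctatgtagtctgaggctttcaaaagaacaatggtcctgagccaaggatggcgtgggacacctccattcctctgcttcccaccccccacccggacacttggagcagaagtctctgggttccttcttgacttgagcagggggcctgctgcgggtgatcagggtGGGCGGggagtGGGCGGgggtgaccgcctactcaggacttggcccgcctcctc
Hpgds: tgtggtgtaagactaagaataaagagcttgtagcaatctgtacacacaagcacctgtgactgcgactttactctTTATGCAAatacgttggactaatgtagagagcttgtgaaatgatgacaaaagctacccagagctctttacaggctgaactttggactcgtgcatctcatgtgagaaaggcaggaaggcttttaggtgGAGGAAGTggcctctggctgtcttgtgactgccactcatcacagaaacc
Tbxas1: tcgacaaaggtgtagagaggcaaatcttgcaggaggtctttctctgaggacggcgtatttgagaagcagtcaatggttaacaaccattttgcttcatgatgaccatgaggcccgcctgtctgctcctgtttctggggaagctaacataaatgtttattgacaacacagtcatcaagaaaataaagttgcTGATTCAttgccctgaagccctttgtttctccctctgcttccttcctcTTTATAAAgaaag

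The Ptgs2 window held the C/EBP motif TTGCNNAA as the palindrome TTGCGCAA, 69 to 62 bases before the start, a motif present in 10.8% of all 32851 windows of the same 300 bases. It also held a GC box, GGGCGG, 170 to 165 bases before the start, which 35.7% of windows share. Within its 50 bases after the start, a CRE core (TGACG, on the minus strand, positions 14 to 18; 20.8% of windows) overlapped an E-box (CACGTG, positions 17 to 22; 7.15% of windows). Ptges had GC boxes 53 to 48 and 42 to 37 bases before its start. The Hpgds window held the PU.1 motif GAGGAAGT 49 to 42 bases before the start, present in 3.2% of all windows, and a C/EBP motif on the minus strand 176 to 169 bases before it. Ptgs1 had the same PU.1 octamer 24 to 17 bases before its start. Tbxas1 had an AP-1 motif (TGANTCA, 7.81% of windows) 61 to 55 bases and overlapping TATA boxes (TATAAA, 13.6%) 13 to 6 bases before its start. No window of the 9 genes held the NF-kB motif (8.46% of windows), the interferon response element ISRE (3.44%) or the ERR element TNAAGGTCA (1.28%), which says only that those letters are not in these windows.

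In ERRα+/+ macrophages 4 of the 10 genes rose (Pla2g4a, Ptgs2, Ptges and Ptges2), 3 fell (Hpgds, Tbxas1 and Alox5ap), and 3 were not called (Ptgs1, Alox5 and Ltc4s). In ERRα-/- macrophages the same 4 rose, the same 3 fell and the same 3 were not called. Calls rest on limma, with Benjamini-Hochberg adjustment over all 13116 genes and a threshold of 0.05. So many genes answered LPS that the 7 of 10 called here stand beside 45.9% of all genes called in ERRα+/+ and 50.4% in ERRα-/- cells. The median log2 difference of the 10 genes was -0.39 in ERRα+/+ and -0.43 in ERRα-/- cells, beside 0.017 and 0.051 over all genes. PBS and LPS arrays did not overlap for 9 of the 10 genes in ERRα+/+ cells (4 higher and 5 lower; 26.6% and 27.3% of all genes) and for 8 in ERRα-/- cells (4 higher and 4 lower; 29.9% and 29.6% of all genes). Among these, Alox5 in ERRα-/- cells was nearly tied: its highest LPS array read -0.6508 and its lowest PBS array -0.6506.

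**Figure D1:**
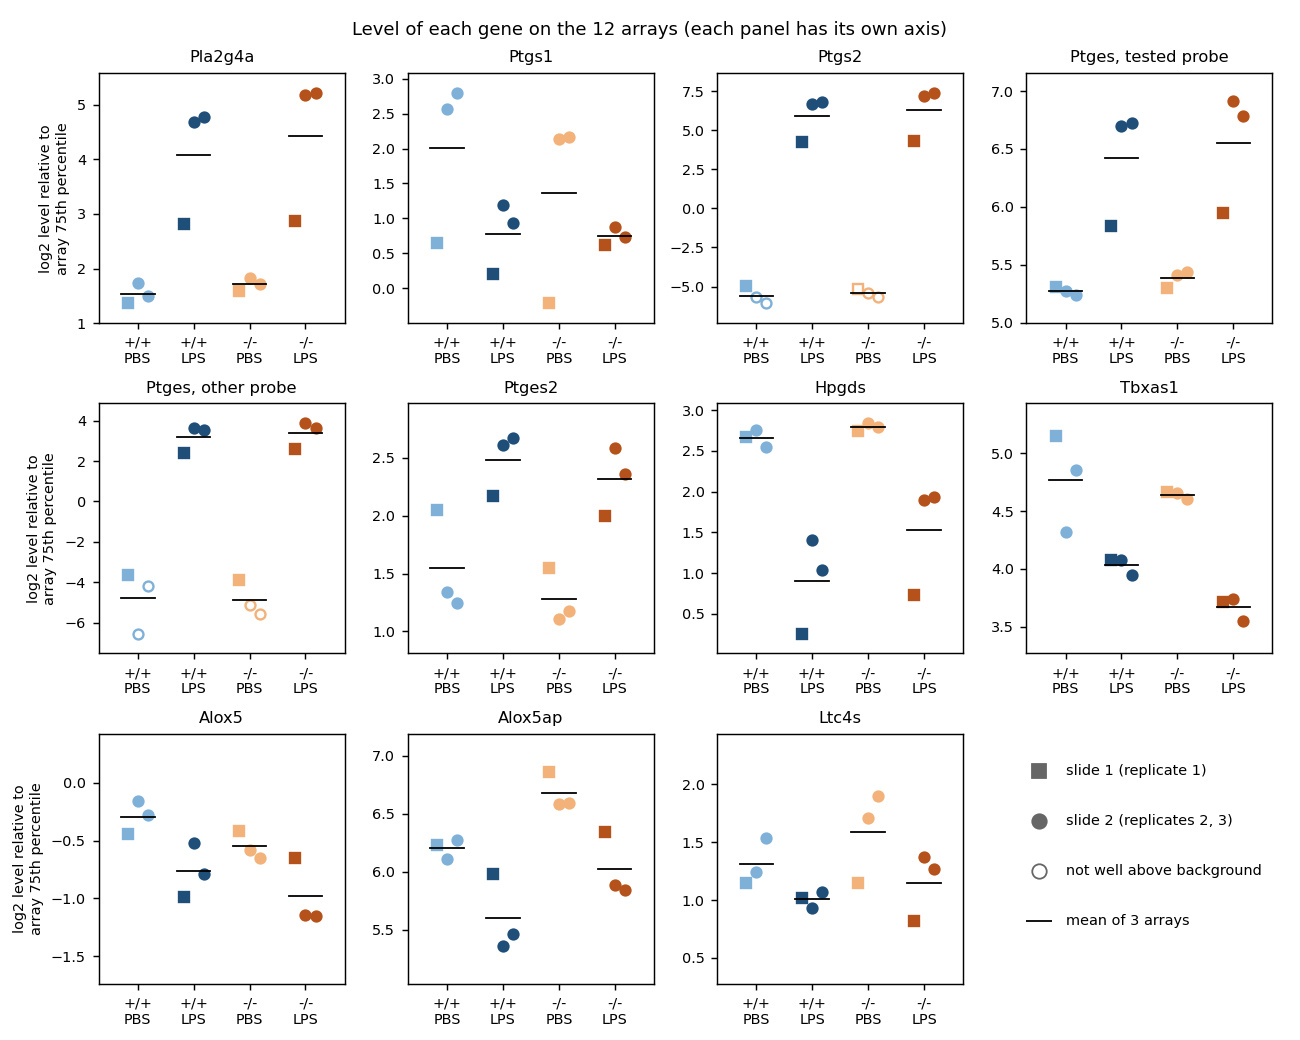
Level of each of the 10 genes on the 12 arrays, as log2 signal relative to the array's 75th percentile, by group, with both Ptges probes; squares are slide 1, circles slide 2, open symbols are not well above background, and lines are group means. Ptgs2 lies at or below -4.98 on all PBS arrays and at or above 4.23 on all LPS arrays, and the LPS squares of Ptgs2, Pla2g4a and Ptges lie below the circles.

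Pla2g4a encodes cytosolic phospholipase A2, the enzyme that supplies arachidonic acid to both branches. Pla2g4a read 1.36, 1.73 and 1.51 with PBS and 2.81, 4.68 and 4.77 with LPS in ERRα+/+ cells. The ERRα-/- arrays read 1.60, 1.83 and 1.72 with PBS and 2.88, 5.18 and 5.21 with LPS. Every LPS array was above every PBS array, and in both genotypes the LPS array of replicate 1 was far below the other LPS arrays. Pla2g4a rose by 2.55 ± 0.63 (log2 difference ± SE, n = 3 per group, 5.86-fold; limma adjusted p = 0.00776) in ERRα+/+ and by 2.71 ± 0.63 (6.52-fold; adjusted p = 0.00515) in ERRα-/- cells. On slide 1 the rise was 1.45 and 1.28, and on slide 2 it was 3.10 and 3.42, in ERRα+/+ and ERRα-/- cells respectively. In whole cultures, fewer expressing cells and less RNA per cell cannot be told apart, here and for every gene below.

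Ptgs2, the inducible cyclooxygenase, changed most of the 10 genes. On ERRα+/+ PBS replicate 1 and ERRα-/- PBS replicates 1 and 3, 1 of its 10 spots was flagged and left out. Its mean signal over the remaining spots was -4.98, -5.69 and -6.09 with PBS and 4.23, 6.70 and 6.81 with LPS in ERRα+/+ cells. In ERRα-/- cells it was -5.18, -5.41 and -5.69 with PBS and 4.32, 7.21 and 7.39 with LPS. The PBS values lay at the floor of the array: the probe was well above background on 1 of 3 ERRα+/+ PBS arrays (replicate 1, where 8 of 10 spots were) and on 0 of 3 ERRα-/- PBS arrays. With LPS the 10 spots agreed closely, with a coefficient of variation between 2.52% and 7.12% per array.

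With PBS values set to a floor, the group mean of Ptgs2 therefore rose 1573-fold in ERRα+/+ and 1876-fold in ERRα-/- cells (log2 10.62 and 10.87). The limma fit of the measured values called both rises (adjusted p = 5.67e-06 and 5.69e-06). The floor was the lowest signal of any probe well above background on each PBS array, or the probe's own value where higher. The folds are estimates over 3 arrays per group, not a minimum for each pair of arrays. The measured log2 difference was 9.21 on slide 1 and 12.64 on slide 2 in ERRα+/+ cells, and 9.50 and 12.85 in ERRα-/- cells. Of these only the slide 1 value in ERRα+/+ cells was taken against a PBS signal well above background, and the others are set by the level of the background. Since Ptgs2 passed the filter on dim probes only through its LPS arrays, its call was bound to be a rise. Pla2g4a and Ptgs2 are neighbours on chromosome 1, with 0 protein-coding genes between them in the RefSeq gene order.

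Ptgs1 encodes the cyclooxygenase that most cells make without a stimulus. Ptgs1 read 0.65, 2.56 and 2.79 with PBS and 0.21, 1.19 and 0.94 with LPS in ERRα+/+ cells. In ERRα-/- cells it read -0.22, 2.14 and 2.17 with PBS and 0.61, 0.88 and 0.74 with LPS. The PBS arrays of replicate 1 were lower than the others by more than any LPS effect on slide 2, and PBS and LPS arrays overlapped in both genotypes. Ptgs1 was not called: the difference was -1.22 ± 0.68 (95% interval -2.72 to 0.28; adjusted p = 0.165) in ERRα+/+ and -0.62 ± 0.68 (-2.12 to 0.89; adjusted p = 0.476) in ERRα-/- cells. Within slide 2 it fell by 1.61 (adjusted p = 5.34e-05) in ERRα+/+ and fell by 1.34 (adjusted p = 0.000116) in ERRα-/- cells, where 72.3% and 73.7% of all genes were called, while slide 1 gave -0.44 and 0.83. With the slide as a block, the ERRα+/+ difference passed the threshold (adjusted p = 0.0233), as it did with the replicate block (adjusted p = 0.0342) and without ERRα+/+ PBS replicate 1 (-1.90, adjusted p = 0.0347). With the slide as a block, 62.7% of all genes were called in ERRα+/+ and 65.5% in ERRα-/- cells.

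The terminal synthases split by product. Both prostaglandin E synthase genes rose, and the synthases of prostaglandin D2 (Hpgds) and thromboxane (Tbxas1) fell, in both genotypes. Ptges encodes the microsomal, inducible prostaglandin E synthase. Its brighter probe, the one tested, read 5.30, 5.27 and 5.24 with PBS and 5.84, 6.69 and 6.73 with LPS in ERRα+/+ cells. It read 5.30, 5.41 and 5.44 with PBS and 5.95, 6.91 and 6.79 with LPS in ERRα-/- cells. All LPS arrays lay above all PBS arrays, again with replicate 1 the lowest of the LPS arrays. By this probe Ptges rose by 1.15 ± 0.28 (2.22-fold; adjusted p = 0.00751) in ERRα+/+ and by 1.17 ± 0.28 (2.25-fold; adjusted p = 0.00623) in ERRα-/- cells. Slide 1 gave 0.53 and 0.65, and slide 2 gave 1.46 and 1.43. Quantile normalization gave smaller rises of 0.66 and 0.59, both still called (adjusted p = 0.0148 and 0.0222).

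The other Ptges probe, which targets the same transcript, changed much more. It read -3.62, -6.55 and -4.21 with PBS and 2.39, 3.64 and 3.52 with LPS in ERRα+/+ cells. ERRα-/- cells gave -3.88, -5.12 and -5.58 with PBS and 2.57, 3.87 and 3.65 with LPS. It was well above background on 1 of 3 PBS arrays in each genotype, both times replicate 1, and on all LPS arrays. The fitted difference was 7.98 ± 0.73 (adjusted p = 2.22e-05) and 8.22 ± 0.73 (adjusted p = 1.99e-05) in a limma fit of all probes made after the data were seen. Against the floor used for Ptgs2, the group mean rose 172-fold in ERRα+/+ and 193-fold in ERRα-/- cells (log2 7.42 and 7.59). Slide 1, with PBS signals above background, gave smaller log2 rises of 6.01 and 6.45, and slide 2 gave 8.96 and 9.11. This dimmer probe passed the filter on dim probes only through its LPS groups, so its call was bound to be a rise. Both probes rose in both genotypes, but the size of the Ptges rise depends on the probe, and the mean of both probes gave 4.56 and 4.70.

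Ptges2 encodes a second, membrane-associated prostaglandin E synthase. Ptges2 read 2.05, 1.34 and 1.24 with PBS and 2.17, 2.61 and 2.67 with LPS in ERRα+/+ cells. The ERRα-/- values were 1.55, 1.11 and 1.18 with PBS and 2.00, 2.58 and 2.36 with LPS. The groups did not overlap, although the ERRα+/+ PBS array of replicate 1 came within 0.12 of its LPS array. Ptges2 rose by 0.94 ± 0.25 (1.92-fold; adjusted p = 0.0116) in ERRα+/+ and by 1.03 ± 0.25 (2.05-fold; adjusted p = 0.00647) in ERRα-/- cells. The rise was 0.12 and 0.45 on slide 1 and 1.35 and 1.33 on slide 2.

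Hpgds encodes the haematopoietic prostaglandin D synthase. Hpgds read 2.67, 2.76 and 2.54 with PBS and 0.26, 1.40 and 1.03 with LPS in ERRα+/+ cells. In ERRα-/- cells the values were 2.75, 2.84 and 2.79 with PBS and 0.74, 1.90 and 1.94 with LPS. PBS arrays were tightly grouped and all LPS arrays lay below them, with replicate 1 the lowest. Hpgds fell by 1.76 ± 0.34 (3.38-fold lower; adjusted p = 0.00208) in ERRα+/+ and fell by 1.27 ± 0.34 (2.41-fold lower; adjusted p = 0.0105) in ERRα-/- cells. Slide 1 gave -2.42 and -2.01, and slide 2 gave -1.43 and -0.90.

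Tbxas1 encodes thromboxane A synthase, which macrophages share with platelets. Tbxas1 read 5.15, 4.32 and 4.85 with PBS and 4.08, 4.08 and 3.95 with LPS in ERRα+/+ cells. The ERRα-/- values were 4.67, 4.66 and 4.60 with PBS and 3.71, 3.74 and 3.55 with LPS. Every LPS array was below every PBS array of its genotype. Tbxas1 fell by 0.74 ± 0.19 (1.67-fold lower; adjusted p = 0.00978) in ERRα+/+ and fell by 0.97 ± 0.19 (1.96-fold lower; adjusted p = 0.00203) in ERRα-/- cells, with -1.07 and -0.95 on slide 1 and -0.57 and -0.98 on slide 2. Background correction by normexp ended the ERRα+/+ call (-0.59, adjusted p = 0.0731). Of 7 megakaryocyte and platelet markers, at least 6 were above background on every array, and 2 rose with LPS in ERRα+/+ and 3 in ERRα-/- cells. Their summed level, in units of the array's 75th percentile, was 97.3 to 151 with PBS and 179 to 236 with LPS in ERRα+/+ cells, and 76.9 to 81.0 and 118 to 126 in ERRα-/- cells. Pf4 made up most of it, and the other 6 summed to 27.2 to 36.0 and 34.0 to 44.3 in ERRα+/+ and to 12.8 to 15.1 and 18.3 to 20.5 in ERRα-/- cells. Their part in the Tbxas1 and Ptgs1 values was not tested.

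In the leukotriene branch 1 of the 3 genes, Alox5ap, was called with LPS, and it fell in both genotypes. Alox5ap encodes the protein that presents arachidonic acid to the lipoxygenase. Alox5ap read 6.23, 6.11 and 6.27 with PBS and 5.98, 5.36 and 5.46 with LPS in ERRα+/+ cells. The ERRα-/- values were 6.86, 6.59 and 6.59 with PBS and 6.35, 5.88 and 5.84 with LPS. The groups did not overlap in either genotype. Alox5ap fell by 0.60 ± 0.20 (1.52-fold lower; adjusted p = 0.0306) in ERRα+/+ and fell by 0.66 ± 0.20 (1.58-fold lower; adjusted p = 0.0189) in ERRα-/- cells, with -0.25 and -0.52 on slide 1 and -0.78 and -0.73 on slide 2. The ERRα+/+ call ended without any one of PBS replicates 1, 2 and 3 and LPS replicates 2 and 3 (adjusted p 0.0523 to 0.120) and with no filter on dim probes (0.0713), and the ERRα-/- call ended without PBS replicate 1 or LPS replicate 2 or 3 (0.0617 to 0.0744). Quantile normalization gave larger falls (-1.07 and -1.17).

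Alox5 encodes the lipoxygenase itself. Alox5 read -0.44, -0.16 and -0.28 with PBS and -0.98, -0.52 and -0.79 with LPS in ERRα+/+ cells. The ERRα-/- values were -0.42, -0.58 and -0.65 with PBS and -0.65, -1.14 and -1.15 with LPS. LPS arrays were below PBS arrays in ERRα+/+ cells, and in ERRα-/- cells the highest LPS array lay just below the lowest PBS array. The differences missed the threshold narrowly, at -0.47 ± 0.18 (95% interval -0.88 to -0.065; adjusted p = 0.0572) and -0.43 ± 0.18 (-0.84 to -0.023; adjusted p = 0.0737). With the slide as a block the ERRα+/+ difference was called (adjusted p = 0.0382) and the ERRα-/- one was not (0.0520), and with the replicate block the ERRα+/+ adjusted p was 0.0483. Within slide 2 it fell by 0.44 (adjusted p = 0.0102) and fell by 0.53 (adjusted p = 0.0043), beside -0.54 and -0.23 on slide 1. Leaving out 1 array also brought it past the threshold: ERRα+/+ LPS replicate 2 (-0.59, adjusted p = 0.045) or ERRα-/- LPS replicate 1 (adjusted p = 0.0292) for ERRα+/+ cells, and ERRα-/- LPS replicate 1 (-0.59, adjusted p = 0.0156) for ERRα-/- cells.

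Ltc4s encodes leukotriene C4 synthase, which joins leukotriene A4 to glutathione. Ltc4s read 1.15, 1.24 and 1.53 with PBS and 1.02, 0.93 and 1.07 with LPS in ERRα+/+ cells. The ERRα-/- values were 1.14, 1.71 and 1.90 with PBS and 0.82, 1.37 and 1.27 with LPS. LPS was lower than PBS in all 3 same-numbered pairs of each genotype, but in ERRα-/- cells the groups overlapped. Ltc4s was not called, at -0.30 ± 0.22 (95% interval -0.79 to 0.18; adjusted p = 0.284) and -0.43 ± 0.22 (-0.92 to 0.053; adjusted p = 0.124). In ERRα-/- cells it passed the threshold with the slide as a block (adjusted p = 0.0326), with the replicate block (0.0394) and without PBS replicate 1 (-0.66, adjusted p = 0.0234). Slide 1 gave -0.13 and -0.33, and slide 2 gave -0.39 (adjusted p = 0.0322) and -0.49 (adjusted p = 0.0131).

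**Figure D2:**
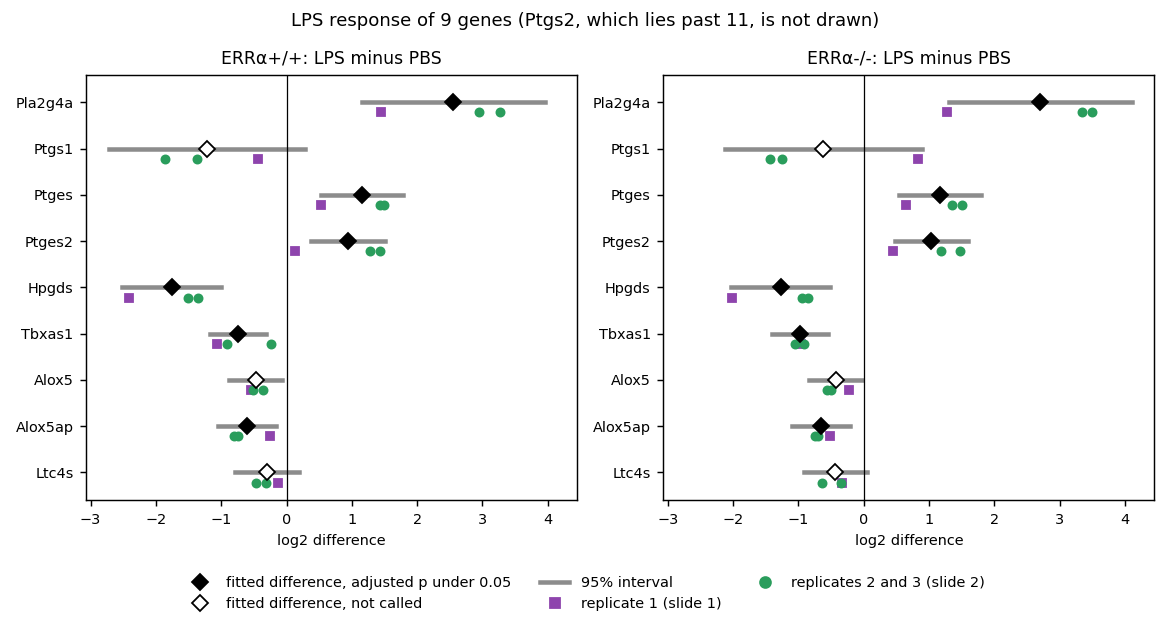
Log2 difference between LPS and PBS for 9 of the 10 genes in each genotype: diamonds are fitted differences (filled at an adjusted p under 0.05), bars 95% intervals, squares the replicate 1 pair on slide 1 and circles the pairs of replicates 2 and 3 on slide 2. For Pla2g4a, Ptges and Ptges2 the square lies left of the circles, for Hpgds it lies left as well and so shows the larger fall, and for Ptgs1 in ERRα-/- cells it lies on the other side of 0.

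The 72 other genes listed for the pathway, of which 52 were tested, were described by function. In ERRα+/+ cells 12 rose, 15 fell and 25 were not called, and in ERRα-/- cells 13 rose, 11 fell and 28 were not called, with medians of -0.11 and -0.14; pairs of values below give ERRα+/+ first and ERRα-/- second. These shares stand beside 22.2% of all genes called higher and 23.7% called lower in ERRα+/+, and 25.1% and 25.3% in ERRα-/- cells.

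Among 14 tested genes of arachidonate release and recycling, 1 rose, 4 fell and 9 were not called in each genotype (medians -0.37 and -0.41). Pla2g15, the lysosomal phospholipase A2, fell by 2.36 ± 0.27 (adjusted p = 9.65e-05) and fell by 2.82 ± 0.27 (adjusted p = 3.53e-05), from 4.01 ± 0.55 to 1.65 ± 0.14 (SD, n = 3) in ERRα+/+ cells. Dagla, which makes the arachidonate-bearing endocannabinoid 2-arachidonoylglycerol, fell, with log2 differences of -2.95 ± 0.48 and -3.77 ± 0.48 (adjusted p = 0.000729 and 0.000161), with 1 of 3 ERRα-/- LPS arrays above background, so that the second value rests in part on background signal. Normexp gave -2.13 and -2.04. Its relative Daglb fell, with log2 differences of -1.93 ± 0.42 and -1.88 ± 0.42 (adjusted p = 0.00387 and 0.00395), and the secreted phospholipase gene Pla2g2e fell, by a log2 difference of -1.97 ± 0.64 and -1.76 ± 0.64 (adjusted p = 0.0275 and 0.0403). Pla2g2e was above background on 2 of 3 LPS arrays in each genotype, so both of its values rest in part on background signal. Its LPS call was followed under the alternatives in ERRα+/+ cells only. The single rises were Lpcat1 in ERRα+/+ (0.68 ± 0.24, adjusted p = 0.0431) and Acsl4, which activates arachidonic acid, in ERRα-/- cells (0.83 ± 0.25, adjusted p = 0.0168). The Lpcat1 call was lost without any one of replicates 2 and 3 of the 4 groups (adjusted p 0.0511 to 0.164), the Acsl4 call without ERRα-/- PBS replicate 1 or LPS replicate 2 or 3 (0.0604 to 0.0673), and the ERRα+/+ Pla2g2e call without PBS replicate 1 or LPS replicate 2 or 3 (0.0960 to 0.0969). Median scaling also ended the calls of Lpcat1 (0.0752) and Acsl4 (0.0508), quantile normalization that of Acsl4 (0.38, adjusted p = 0.155), and the use of all probes without a filter those of Lpcat1 (0.0891) and Pla2g2e in ERRα+/+ cells (0.0505).

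Of 9 other prostanoid enzymes and transporters, 2 rose, 3 fell and 4 were not called in each genotype (medians -0.27 and -0.68). Hpgd and Ptgr2, which degrade prostaglandins, fell: Hpgd at -2.92 ± 0.68 and -3.14 ± 0.68 (adjusted p = 0.00568 and 0.00345), and Ptgr2 at -1.57 ± 0.24 and -1.66 ± 0.24 (adjusted p = 0.000525 and 0.000355). Hpgd read 0.69, 2.23 and 2.57 with PBS and -2.15, -0.62 and -0.50 with LPS in ERRα+/+ cells, and 2.15, 3.77 and 3.60 against -1.08, 0.53 and 0.64 in ERRα-/- cells, so that no LPS array reached a PBS array of its genotype. A second Hpgd probe fell, with log2 differences of -3.04 and -2.97 (adjusted p = 0.00579 in both genotypes). Cbr1, a carbonyl reductase, fell, with log2 differences of -0.85 ± 0.27 and -0.90 ± 0.27 (adjusted p = 0.0233 and 0.0163). Abcc4, which exports prostaglandin E2, rose by 1.57 ± 0.29 and 1.28 ± 0.29 (adjusted p = 0.00155 and 0.00422), and Ptges3, the cytosolic prostaglandin E synthase and a chaperone partner, by 1.101 ± 0.389 and 1.24 ± 0.39 (adjusted p = 0.0393 and 0.0218). By this probe Ptges3 was not called with quantile normalization in either genotype (0.63 and 0.70, adjusted p = 0.134 and 0.0948) or in ERRα+/+ cells with normexp (0.0827), median scaling (0.0598) or no filter on dim probes (0.0740), nor without any one of PBS replicates 1, 2 and 3 and LPS replicates 2 and 3 in ERRα+/+ cells (0.0506 to 0.137) or PBS replicate 1 and LPS replicates 2 and 3 in ERRα-/- cells (0.0763 to 0.0835). Its 3 other probes rose by 1.15 to 1.21 in ERRα+/+ (adjusted p 0.000128 to 0.00723) and by 1.18 to 1.29 in ERRα-/- cells (6.83e-05 to 0.00495). The Cbr1 call was lost without PBS replicate 2 or LPS replicate 2 or 3 in ERRα+/+ (0.0731 to 0.0951), there also with normexp (-0.65, adjusted p = 0.0541), and without LPS replicate 2 or 3 in ERRα-/- cells (0.0537 and 0.0711).

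Of 12 other lipoxygenase and leukotriene genes, 1 rose, 5 fell and 6 were not called in ERRα+/+ cells, and 2 rose, 3 fell and 7 were not called in ERRα-/- cells (medians -0.60 and -0.66). Lta4h, which makes leukotriene B4, fell, with log2 differences of -1.40 ± 0.23 and -1.23 ± 0.23 (adjusted p = 0.000766 and 0.00143). Mgst2 and Mgst3, microsomal glutathione transferases related to Ltc4s, fell, with log2 differences of -1.46 ± 0.17 and -0.78 ± 0.17 (adjusted p = 8.43e-05 and 0.00304) and -0.79 ± 0.22 and -0.67 ± 0.22 (adjusted p = 0.0154 and 0.0288). Abcc1, the exporter of leukotriene C4, rose by 2.21 ± 0.34 and 1.32 ± 0.34 (adjusted p = 0.000545 and 0.00848). Cyp4f18, which inactivates leukotriene B4, fell in ERRα+/+ cells (-0.93 ± 0.35, adjusted p = 0.0498), and the epidermal lipoxygenase gene Alox12b rose in ERRα-/- cells (0.80 ± 0.16, adjusted p = 0.00264). In the other genotype they stood at -0.68 ± 0.35 and 0.15 ± 0.16, and neither LPS response was called as different between genotypes. The Cyp4f18 call was lost without any one of 10 of the 12 arrays (adjusted p 0.0539 to 0.169), all but ERRα+/+ PBS replicate 1 and ERRα-/- LPS replicate 1, and with median scaling (0.0540) or no filter (0.0934). In ERRα-/- cells the Mgst3 call was lost without PBS replicate 2 or 3 or LPS replicate 1 (0.0573 to 0.0930; -0.38 without the last) or with no filter (0.0641), and the Abcc1 call with quantile normalization (0.0570).

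The receptor list held eicosanoid receptors and the formyl peptide receptors Fpr1 and Fpr2. Of its 11 tested genes, 5 rose, 2 fell and 4 were not called in ERRα+/+ cells, and 5 rose, 1 fell and 5 were not called in ERRα-/- cells (medians 1.07 and 0.83). Without Fpr1 and Fpr2 the middle value was that of Cysltr1, 0.31 and 0.39. The formyl peptide receptors Fpr2, which also binds lipoxin A4, and Fpr1 rose most, by 5.35 ± 0.87 and 5.11 ± 1.14 in ERRα+/+ (adjusted p = 0.000738 and 0.00443) and by 3.41 ± 0.87 and 3.13 ± 1.14 in ERRα-/- cells (adjusted p = 0.00784 and 0.041). Fpr2 read -0.96, 2.76 and 3.41 in the ERRα+/+ PBS arrays, and without replicate 1 of that group the Fpr1 rise was 3.34. Cysltr2, a receptor of cysteinyl leukotrienes, rose by 1.75 ± 0.39 and 2.22 ± 0.39 (adjusted p = 0.00424 and 0.00102). Ptgdr2, a prostaglandin D2 receptor, was above background on no PBS array. Against the lowest signal well above background on the PBS arrays, its LPS mean was 2.38-fold higher in ERRα+/+ cells (adjusted p = 0.000296). This is no strict bound, since 2 of 3 LPS arrays were above background there. The same measure gave 1.90-fold in ERRα-/- cells (3 of 3, adjusted p = 0.00231), as an estimate from group means and not a minimum. The fitted ERRα+/+ log2 difference of 2.76 was as small as 0.65 among the alternatives. Ptgdr2 passed the filter only through the ERRα-/- LPS arrays, so a call in ERRα-/- cells could only be a rise. The leukotriene B4 receptor gene Ltb4r1 fell, with log2 differences of -1.28 ± 0.27 and -0.92 ± 0.27 (adjusted p = 0.00314 and 0.0152), and Ptger2, a prostaglandin E2 receptor, fell in ERRα+/+ cells (-1.08 ± 0.33, adjusted p = 0.0201; -0.45 ± 0.33, adjusted p = 0.269 in ERRα-/- cells). The Ptger2 call was lost without ERRα+/+ PBS replicate 1 or LPS replicate 2 or 3 (0.0540 to 0.0776), the ERRα-/- Fpr1 call without any one ERRα-/- array or ERRα+/+ LPS replicate 2 or 3 (0.0535 to 0.116), with quantile normalization (2.62, adjusted p = 0.0863) or with no filter (0.0717), and the ERRα-/- Ltb4r1 call without LPS replicate 2 or 3 (0.0535 and 0.0665).

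Of 6 regulators, 3 rose in each genotype, 1 fell in ERRα+/+ and 0 in ERRα-/- cells (medians 1.20 and 1.55). C/EBP motifs are printed above for Ptgs2, which rose, and for Hpgds, which fell, and a link to the factors that bind them was not tested. Cebpb, the gene of 1 such factor, rose by 1.73 ± 0.48 and 2.21 ± 0.48 (adjusted p = 0.0133 and 0.00347). Its relative Cebpd rose by 2.82 ± 0.77 in ERRα+/+ cells (adjusted p = 0.0128), a rise of 1.85 without ERRα+/+ PBS replicate 1, and stood at 2.01 ± 0.77 in ERRα-/- cells (adjusted p = 0.0507). Zfp36, whose product destabilises AU-rich mRNAs including that of Ptgs2, rose by 2.25 ± 0.54 and 2.77 ± 0.54 (adjusted p = 0.00651 and 0.00189). Elavl1, whose product stabilises such mRNAs, rose in ERRα-/- cells by one probe (1.09 ± 0.39, adjusted p = 0.0377) while another gave 0.15 ± 0.23 (adjusted p = 0.62 in the fit of all probes). Cotl1, whose product binds the lipoxygenase, fell in ERRα+/+ cells (-0.45 ± 0.14, adjusted p = 0.0242). The ERRα+/+ Cebpb call was lost without LPS replicate 2 or 3 (0.0553 and 0.0579), the Cotl1 call without ERRα+/+ PBS replicate 2 or 3 or LPS replicate 1 or 2 (0.0624 to 0.0717), with median scaling (0.0624) or with no filter (0.0735), and the Elavl1 call without ERRα+/+ PBS replicate 3, ERRα-/- PBS replicate 1 or 3, or ERRα-/- LPS replicate 2 or 3 (0.0504 to 0.129). The Elavl1 call was also lost with quantile normalization (0.54, adjusted p = 0.195), median scaling (0.0662), no filter (0.0708) and the mean of its probes (0.62, adjusted p = 0.108).

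**Figure D3:**
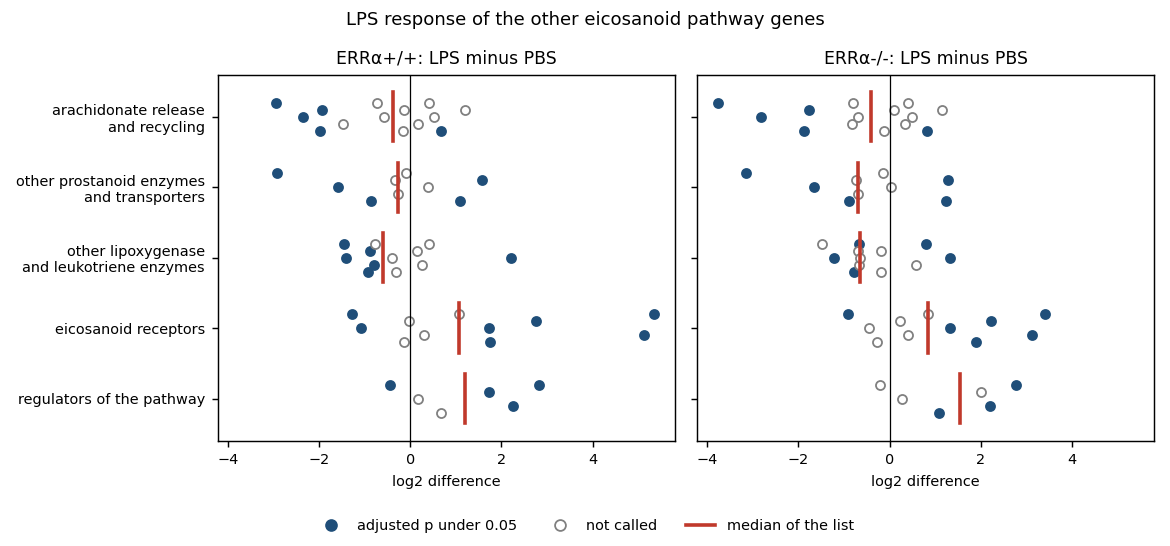
Log2 difference between LPS and PBS for the 52 other pathway genes tested, by list and genotype: each point is a gene, filled at an adjusted p under 0.05, and the red line is the list's median. Receptors and regulators have medians above 0 in both genotypes, and the other 3 lists have medians below 0.

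The genotypes were then compared, with the same arrays that served the LPS comparisons, so the sets of differences share samples. Limma called 0 of the 10 genes between ERRα-/- and ERRα+/+ cells under PBS (0.427% of all genes called), under LPS (0.13%) or averaged over both treatments (1.36%). The same fit called Esrra itself lower under PBS (-3.58, adjusted p = 0.0226) and averaged (-2.84, 0.00379), but not under LPS (-2.11, 0.201). With LPS the Esrra signal rose in both genotypes (1.62 and 3.09, adjusted p = 0.0232 and 0.000698). A count of 0 here therefore does not show that genotype differences are absent. At an unadjusted p under 0.05 there were 1, 0 and 1 of the 10 genes, each time Alox5ap where there was 1, and 864, 819 and 1237 of all genes. The groups did not overlap for Alox5ap under PBS (higher in ERRα-/-; 5.81% of all genes) and for Tbxas1 under LPS (lower in ERRα-/-; 7.52% of all genes).

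Alox5ap was the gene nearest to a call. It was higher in ERRα-/- cells by 0.45 ± 0.14 averaged over both treatments (95% interval 0.14 to 0.76; n = 6 per genotype; limma adjusted p = 0.234). The difference ran the same way in all 6 same-numbered pairs, at 0.64, 0.48 and 0.32 with PBS and 0.37, 0.52 and 0.38 with LPS. With the slide as a block it was called (0.45 ± 0.09, adjusted p = 0.019; 4.96% of all genes called), as with the replicate block (adjusted p = 0.0357). It stood at 0.50 on slide 1 and 0.42 on slide 2. All 6 pairs also ran one way for Hpgds (0.074 to 0.90) and Pla2g4a (0.068 to 0.50), which were higher in ERRα-/- cells. They did so too for Ptges2 (-0.50 to -0.031), which was lower. None of Hpgds, Pla2g4a and Ptges2 was called with either block. The share of all genes whose 6 pairs ran one way was not computed, so this pattern has no background to stand beside. The pairs on slide 2 rest on replicate numbers, whose matching the correlations between arrays do not settle.

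For the other 9 genes the 95% interval of the averaged difference included 0. The averaged log2 difference of Pla2g4a was 0.26 (95% interval -0.73 to 1.25), that of Ptgs1 -0.34 (-1.40 to 0.73) and that of Ptgs2 0.28 (-1.04 to 1.59). Among the synthases it was 0.12 for Ptges (-0.32 to 0.56), -0.22 for Ptges2 (-0.61 to 0.18), 0.38 for Hpgds (-0.15 to 0.92) and -0.25 for Tbxas1 (-0.55 to 0.053). In the leukotriene branch it was -0.24 for Alox5 (-0.52 to 0.051) and 0.21 for Ltc4s (-0.13 to 0.56). The upper bound of Pla2g4a, the lower bound of Ptgs1 and both bounds of Ptgs2 lie past 1 in size, which is a doubling or a halving, while those of the other 6 genes do not.

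Within slide 2 alone, where replicates lay closer together, 7 of the 10 genes were called on the averaged difference, beside 20.4% of all genes. Ptgs2 (0.44, adjusted p = 0.0446), Pla2g4a (0.32, 0.029), Hpgds (0.43, 0.0302), Alox5ap (0.42, 0.00756) and Ltc4s (0.37, 0.0371) were higher in ERRα-/- cells, and Ptgs1 (-0.39, 0.0302) and Alox5 (-0.44, 0.0126) were lower. Ptgs2 was above background on none of the PBS arrays of slide 2, so its averaged value rests in part on background signal, and under LPS alone it was not called within slide 2 (0.55, adjusted p = 0.0716). Slide 1 gave the opposite sign for Ptgs2 (-0.053), Ltc4s (-0.10) and Alox5 (0.18) and the same sign for Ptgs1 (-0.23), Hpgds (0.28), Alox5ap (0.50) and Pla2g4a (0.15). Under PBS 1 gene (Alox5ap; 9.55% of all genes) and under LPS 4 genes (Hpgds, Alox5, Alox5ap and Pla2g4a; 16.9% of all genes) were called within slide 2. Each group then had 2 arrays.

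**Figure D4:**
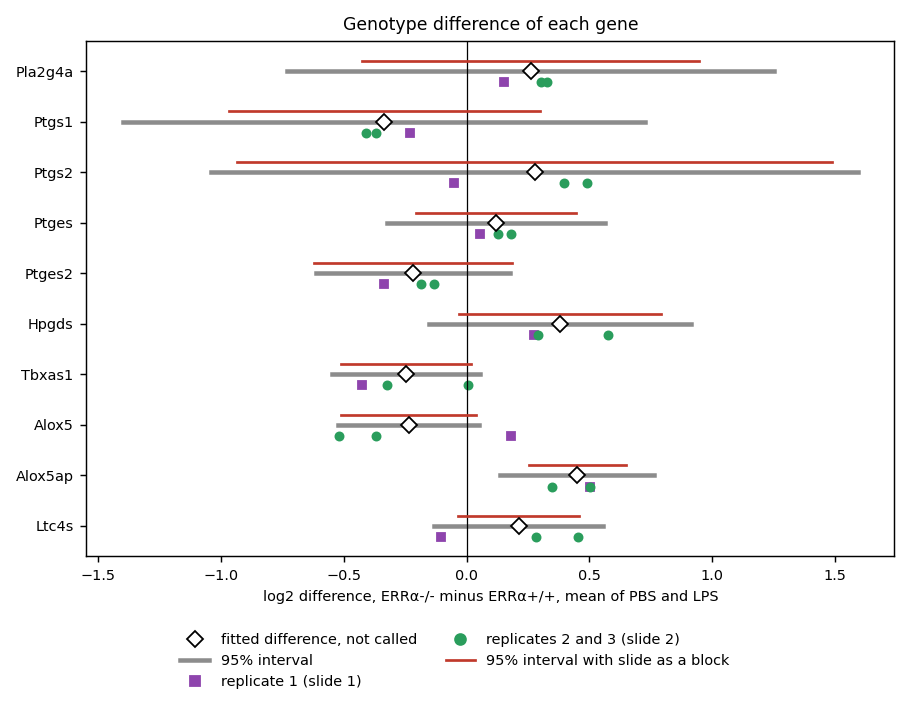
Log2 difference between ERRα-/- and ERRα+/+ macrophages, averaged over PBS and LPS, for the 10 genes: diamonds are fitted differences, grey bars their 95% intervals, red bars the intervals with the slide as a block, squares the replicate 1 arrays on slide 1 and circles replicates 2 and 3 on slide 2. Alox5ap is the one gene whose grey bar lies wholly above 0, from 0.14 to 0.76, and for Alox5 the square and the circles lie on opposite sides of 0.

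The LPS response itself was not called as different between genotypes for any of the 10 genes. Limma called 0 of 13116 genes for this difference, with 293 genes, and 0 of the 10, at an unadjusted p under 0.05. Within slide 2, 4.21% of all genes were called and 0 of the 10. The difference of the LPS responses (ERRα-/- minus ERRα+/+) was 0.24 for Ptgs2 (95% interval -2.40 to 2.87), 0.15 for Pla2g4a (-1.83 to 2.14), 0.018 for Ptges (-0.87 to 0.90) and 0.49 for Hpgds (-0.58 to 1.56).

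Among the 52 other pathway genes, 0 were called between genotypes under PBS, under LPS or for the difference between genotypes in the LPS response (5, 3 and 2 had an unadjusted p under 0.05 in the limma fit), and 1 was called on the averaged difference. That gene was Alox12, the platelet-type lipoxygenase. Alox12 levels with PBS were 1.65, 1.25 and 0.83 for ERRα+/+ and 0.56, -0.25 and -0.20 for ERRα-/- cells. With LPS they were 1.79, 1.72 and 1.48 for ERRα+/+ and 1.07, 0.40 and 0.36 for ERRα-/- cells. All ERRα-/- arrays lay below the ERRα+/+ arrays of the same treatment, and the averaged log2 difference was -1.12 ± 0.20 (adjusted p = 0.0249), a call lost without any one of 9 arrays (adjusted p 0.0504 to 0.0846), all but ERRα+/+ PBS replicate 3 and replicate 1 of both ERRα-/- groups, and with no filter on dim probes (0.0617). Megakaryocyte and platelet markers moved the same way: 4 of 7 (Ppbp, Gp9, Gp1bb and Gp6) were called lower in ERRα-/- cells on the averaged difference, with a median of -1.09 over the 7, and the ranges of their summed level given above, with and without Pf4, did not overlap between genotypes under either treatment. Pf4 itself was not called (-0.56 ± 0.14, adjusted p = 0.114). Other marker lists also had medians below 0 on this difference: -0.86 for stromal and endothelial, -0.55 for mast cell and basophil and -0.50 for neutrophil markers. The medians were -0.45 for lymphocyte, -0.32 for eosinophil and 0.12 for macrophage markers, and 0 genes were called in each of these lists. The part of any of these cells in the Alox12 value was not tested.

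With the slide as a block, 2 of the 52 genes were called higher and 4 lower in ERRα-/- cells on the averaged difference, beside 4.96% of all genes, and the replicate block called the same 6 genes. Apart from Alox12 these were named after their values were seen. Within slide 2, 7 were called higher and 10 lower, beside 20.4% of all genes. Hpgd, the prostaglandin-inactivating dehydrogenase described above, was higher in ERRα-/- cells in all 6 same-numbered pairs, by 1.46, 1.54 and 1.02 with PBS and by 1.07, 1.15 and 1.14 with LPS. Its averaged difference of 1.23 had an SE of 0.48 without a block (adjusted p = 0.412) and of 0.080 with the slide as a block (adjusted p = 0.000222), and a second probe gave 1.23 ± 0.50 without one. The share of all genes whose 6 pairs ran one way was not computed. Ptger4, a prostaglandin E2 receptor, was also higher (0.58 ± 0.11, adjusted p = 0.0157). Mgll, which releases arachidonic acid from 2-arachidonoylglycerol (-1.41 ± 0.13, adjusted p = 0.000829), Alox12 (adjusted p = 0.000996), the thromboxane receptor gene Tbxa2r (-0.96 ± 0.17, adjusted p = 0.0132) and Dagla (-0.75 ± 0.16, adjusted p = 0.0284), which was at background on 2 of 3 ERRα-/- LPS arrays, were lower. The part of platelet-type cells in these values was not tested. The LPS response differed between genotypes for 0 of the 52 genes with either block in the limma fit (6 with an unadjusted p under 0.05 in each), and within slide 2 for 3, beside 4.21% of all genes.

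The genes whose levels followed a member most closely over the 12 arrays were sought among all tested genes, as a description that the LPS contrast and the slides dominate. Ptgs2 was followed by Cd274 and Sdc4 (Pearson r = 0.999 each) and Tma16 (0.998), and Ptges by Rlim (0.997), Pdss1 and Il19 (0.996 each). Ptgs1 was followed by Zmym2 (0.975), R3hdm2 (0.967) and Ntan1 (0.963), and Alox5ap by Klhdc9 (0.973), Borcs6 (0.969) and Ppt1 (0.952). Within the 10 genes, Ptges and Pla2g4a had r = 0.996 and Ptgs2 and Ptges r = 0.945.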

How the data were processed

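Expression was measured in 12 macrophage samples on 1-colour Agilent arrays, labelled with Cy3 per the labels' protocols. The deposited intensity values are the authors' scanner output, background-subtracted and detrended within each array and not normalized between arrays, made with Agilent Feature Extraction 11.5.1.1 per the file headers (9.3.2.1 per the submitters' processing notes). Flags of 0 or 1 for spots above background, saturated, non-uniform or population outliers came from the same files, per the file headers. The deposited series table held the same intensity values within a relative tolerance of 1e-05 and served only as an alternative. The labels name a different slide format for replicate 1, while all headers give one design of 62976 spots.

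Spots flagged as non-uniform or as population outliers (111 to 230 per array) were left out, spots of a probe were averaged, and each array's log2 processed signals were set relative to their 75th percentile. Probes were named through RefSeq accessions (27509 of 55681 probes, 20887 genes). A gene entered the fit through its brightest probe, among probes that some group showed well above background in all 3 replicates (13116 genes). All 10 genes passed, Ptgs2 through its LPS groups only, as did the dimmer Ptges probe in the fit of all probes. One limma fit (R 4.3.3, limma 3.58.1) with a mean per group gave 6 contrasts, with Benjamini-Hochberg adjustment over all genes tested and 95% intervals. The fit was tested on simulated data. The number of arrays limits the precision.

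Groups came from the sample labels. Same-numbered arrays deviated together (correlations 0.143 to 0.784 over 18 pairs). Replicate numbers were taken to pair the samples only for the values given by pair and for the replicate block. The main fit used no pairing and no block. Replicate 1 was also slide 1. Replicate 2 set against replicate 3 of another group, both on slide 2, gave 0.165 to 0.512. These correlations therefore do not tell a pairing of replicates 2 and 3 from a shared slide. Alternatives were normexp background correction (offset 50), quantile and median scaling, no filter or a stricter filter on dim probes, the mean of a gene's probes, the slide or the replicate as a block, slide 2 alone and leaving out each array. Keeping the flagged spots, fitting each Ptges probe and repeating the alternatives for named pathway genes, with the blocks for all pathway genes between genotypes and the platelet marker sum without Pf4, were chosen after seeing the data. Besides the 10 genes, the text names of each pathway list the called genes with the 3 largest differences in each direction per LPS comparison and the averaged genotype comparison, and for Ptgs2, Ptges, Ptgs1 and Alox5ap the 3 genes with the most similar levels. Comparisons between genotypes aside, the alternatives of a pathway gene were repeated only where it was among the 3 largest called differences. The members and lists were chosen with earlier results of these data known. One marker of another cell type is not reported here and is left out of that list's sums and counts.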

Additional observations from a re-analysis of the deposited data

How the results depend on the processing

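The LPS differences of the 10 genes kept their direction under every alternative and every left-out array. Of their settings, 431 kept the call, 17 gained one and 10 lost one. With 1 array left out, 6 to 8 of the 10 genes were called in each genotype, and 4543 to 6688 of all genes in ERRα+/+ and 5141 to 7230 in ERRα-/- cells. Within slide 2, 9482 genes were called in ERRα+/+ cells, beside 6019 on all arrays. Quantile normalization moved the all-gene median LPS difference to -0.14 and -0.15, so that 2407 genes rose and 3717 fell in ERRα+/+ and 2631 and 3945 in ERRα-/- cells, beside 2908 and 3111, and 3294 and 3320, with the 75th percentile; the 10 genes still split into 4 rises and 3 falls.

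The genotype counts depended on the slides, and the cause was not tested. Under PBS 1 of the 10 genes was called within slide 2, and under LPS 4 were. On the averaged difference 1 gene was called with the slide as a block, 1 with the replicate block (the same gene, Alox5ap) and 7 within slide 2. Leaving out any one array gave 0 called genes in each genotype comparison. Over all genes, the PBS comparison called 56, and 16 with median scaling, 5 with no filter, 277 with the slide block, 193 with the replicate block, 1253 within slide 2 and 3 to 81 with an array left out. The LPS comparison called 17, and 9, 6, 212, 132, 2218 and 3 to 42 under the same settings. The averaged comparison called 178, and 113 with normexp, 92 with no filter, 650 with the slide block, 499 with the replicate block, 2673 within slide 2 and 84 to 260 with an array left out. The interaction called 0, with 1 under normexp and 552 within slide 2. Apart from the values given here and in the results, the replicate block changed no other call of the 10 genes.

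Genotype differences that turned their sign were not called. Under PBS these were Ptgs2 (-0.17), Hpgds (-0.025) and Tbxas1 (0.084) with normexp, and Tbxas1 within slide 2 (0.045). For the interaction they were Ptges with normexp (-0.092), quantile (-0.066) and median scaling (-0.019), Ltc4s with normexp (0.013), and within slide 2 Ptges (-0.032), Ptges2 (-0.020), Alox5 (-0.092) and Alox5ap (0.051). With 1 array left out, the PBS differences ranged from -1.31 to 0.15 for Ptgs1, -0.092 to 0.46 for Ptgs2 and -0.36 to 0.057 for Tbxas1. Under LPS they ranged from -0.32 to 0.17 for Ptgs1, -0.45 to 1.39 for Ptgs2, -0.16 to 0.43 for Ptges and -0.30 to 1.11 for Pla2g4a. Averaged, the ranges were -0.67 to 0.059 for Ptgs1, -0.14 to 0.77 for Ptgs2, -0.025 to 0.27 for Ptges and -0.057 to 0.65 for Pla2g4a. For the interaction they were -0.19 to 1.28 for Ptgs1, -0.61 to 1.23 for Ptgs2, -0.27 to 0.32 for Ptges, -0.16 to 0.25 for Ptges2, -0.12 to 0.16 for Alox5, -0.22 to 0.13 for Alox5ap, -0.35 to 0.035 for Ltc4s and -0.48 to 0.93 for Pla2g4a. Signal over background limits the PBS levels of Ptgs2 and of the dimmer Ptges probe. The size of their rise is known only as an estimate from group means against a floor.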
